A study of Rattus norvegicus with 36 samples.

Results

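The nucleus accumbens (NAc) was compared with the prelimbic cortex (PL) in 4 male cocaine-naïve rats, across all mature microRNAs (miRNAs) counted in their small RNA libraries. The members are the 8 libraries, of 36 in the study, that the sample labels place in the NAc or the PL of naïve rats, 4 for each region. The rats are called M157, M378, M476 and M480, and each gave 1 NAc and 1 PL library, so the regions were compared within a rat. They were N/NIH heterogeneous stock rats, an outbred population in which every animal carries a different mix of alleles, and they were age-matched with the other groups. The study also holds 4 rats in acute withdrawal and 4 rats after 4 weeks of abstinence, both after long-access cocaine self-administration, and libraries of the infralimbic cortex (IL) of every rat. The tissue was cut from frozen sections, so each library mixes neurons, glia, vessels and whatever lay at the edge of the piece.

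The NAc is the ventral part of the striatum. Nearly all of its neurons are inhibitory medium spiny projection neurons, which receive dopamine from the midbrain and glutamate from the cortex. The PL is layered medial prefrontal cortex, built mainly from excitatory pyramidal neurons, some of which project to the NAc. A miRNA is cut from a hairpin precursor, and either arm (5p or 3p) can be loaded into an Argonaute protein. The loaded strand finds its messenger RNAs mainly through its seed, bases 2 to 8 counted from the 5′ end, so miRNAs that share a seed form a family with overlapping targets.

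The mature sequences below are those that the results turn on, with the seed in capitals (RefSeq, build GRCr8). A name matched a RefSeq mature sequence for 364 of the 406 miRNAs tested. The first set holds the miRNAs that led the difference, higher in the NAc, with both copies of the miR-7 and miR-101 seeds.
rno-miR-187-3p: uCGUGUCUuguguugcagccgg
rno-miR-7a-5p: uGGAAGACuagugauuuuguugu
rno-miR-7b: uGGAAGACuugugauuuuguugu
rno-miR-101a-3p: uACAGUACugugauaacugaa
rno-miR-101b-3p: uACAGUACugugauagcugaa
rno-miR-21-5p: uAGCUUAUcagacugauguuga
rno-miR-872-5p: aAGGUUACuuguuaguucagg
rno-miR-1298: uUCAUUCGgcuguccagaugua
rno-miR-448-3p: uUGCAUAUguaggauguccca
rno-miR-495: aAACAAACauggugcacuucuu
The second set holds the let-7 seed, whose 8 members tested went in different directions although they share bases 2 to 8.
rno-let-7a-5p: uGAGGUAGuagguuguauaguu
rno-let-7b-5p: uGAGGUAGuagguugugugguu
rno-let-7c-5p: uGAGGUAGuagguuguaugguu
rno-let-7d-5p: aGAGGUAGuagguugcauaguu
rno-let-7e-5p: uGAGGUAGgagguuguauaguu
rno-let-7f-5p: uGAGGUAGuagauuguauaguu
rno-let-7i-5p: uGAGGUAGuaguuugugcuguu
rno-miR-98-5p: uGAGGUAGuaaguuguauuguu
The third set holds miRNAs that were lower in the NAc, and the 2 arms of miR-135a, which went opposite ways.
rno-miR-128-2-5p: gGGGGCCGaugcacuguaaga
rno-miR-490-3p: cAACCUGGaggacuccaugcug
rno-miR-671: uCCGGUUCucagggcuccacc
rno-miR-770-3p: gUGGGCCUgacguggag
rno-miR-214-3p: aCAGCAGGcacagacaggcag
rno-miR-135a-3p: uGUAGGGAuggaagccaugaaa
rno-miR-135a-5p: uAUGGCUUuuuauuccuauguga

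Total counts were 9509360 to 12757547 in the 4 NAc libraries and 7517269 to 9911807 in the 4 PL libraries, and the NAc library was the deeper in every rat. The 5 most abundant miRNAs took 42.8% to 50.5% of the counts in the NAc and 44.7% to 51.9% in the PL. RNA integrity numbers were 8.1 to 9.2 in the NAc and 8.5 to 9.1 in the PL. Libraries of 1 region correlated with r of 0.956 to 0.990 over the tested miRNAs, and NAc with PL libraries with r of 0.866 to 0.958. The first principal component held 68.9% of the variance and separated the regions. The brain-enriched rno-miR-128-3p was the most abundant miRNA, and none of the 4 red blood cell miRNAs in the table passed the filter on low counts. Which libraries shared a sequencing pool is not given in the sources used here, so its part in any difference was not tested.

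miRNA levels differed widely between the regions. Of 406 miRNAs, 196 (48.3%) had a Benjamini-Hochberg adjusted p under 0.05 in edgeR's quasi-likelihood test with the rat as a block, 105 higher in the NAc (25.9%) and 91 lower (22.4%). At least 2-fold differences were found for 92 of the higher (22.7% of those tested) and 59 of the lower (14.5%), and at least 4-fold differences for 42 and 7. The median log2 fold change (log2FC, NAc over PL) of all miRNAs was −0.02. Of the 196, 185 went the same way in 4 of 4 rats. The 4 NAc libraries did not overlap the 4 PL libraries for 95 miRNAs that were higher (23.4%) and 94 that were lower in the NAc (23.2%), and an exact two-sided permutation test gives these its smallest p for 4 against 4 values, 0.0286. That p follows from the lack of overlap itself, is unadjusted and ignores the pairing by rat. Exact sign flips of the within-rat differences cannot go below a p of 0.125.

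The number of calls depended on which rats entered. Without M157 there were 38 higher and 40 lower, without M378 65 and 58, without M480 45 and 38, and without M476 139 and 109. All 196 kept their sign without each rat in turn, and 32 of the higher and 32 of the lower kept their call. With library totals as the only scaling, 143 were higher and 51 lower, so that the higher ones made up 73.7% of the calls instead of 53.6%. The median log2FC moved by 0.32 under that scaling, and all changes given here are relative to TMM scaling.

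**Figure D1:**
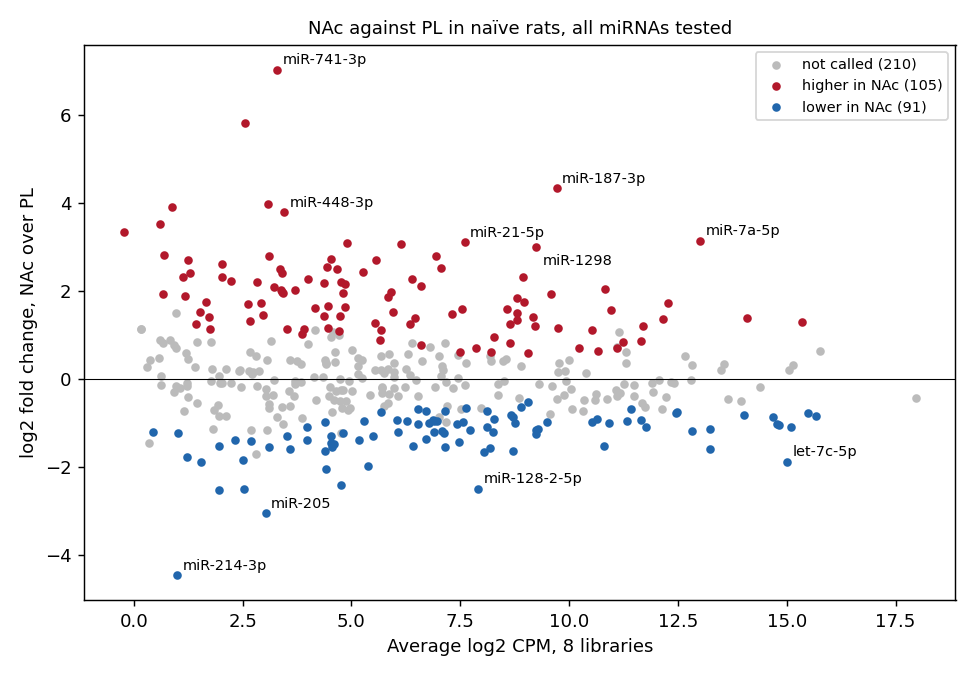
The log2 fold change of NAc over PL (vertical axis) against average log2 CPM over the 8 libraries (horizontal axis) for 406 miRNAs, red where higher and blue where lower in the NAc at an adjusted p under 0.05. rno-miR-187-3p stands at 4.34 among miRNAs of middle to high level, and the 105 red points reach further from 0 than the 91 blue ones.

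The difference with the lowest p was that of rno-miR-187-3p, at chr18:16005964-16005985 on the minus strand (GRCr8). In the order M157, M378, M476 and M480 it stood at 10.66, 10.92, 10.35 and 10.58 log2 CPM (counts scaled to a common library size) in the NAc, against 6.23, 6.23, 6.10 and 6.60 in the PL. The regions lay far apart and neither spread by more than 1 log2 unit. The log2FC was 4.34 (standard error, SE, 0.22, edgeR adjusted p = 6.69e-05). The other arm, rno-miR-187-5p, was higher too, at 6.55, 6.67, 5.98 and 5.98 log2 CPM in the NAc against 4.08, 4.59, 2.05 and 3.53 in the PL (log2FC = 2.70, SE 0.35).

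rno-miR-7a-5p was the most abundant of the leading miRNAs. miR-7 is known for repressing alpha-synuclein and for its many binding sites on the circular RNA Cdr1as. It stood at 12.98, 13.67, 13.57 and 14.62 log2 CPM in the NAc and at 9.81, 9.18, 11.68 and 11.57 in the PL (log2FC = 3.15, SE 0.42, edgeR adjusted p = 0.00326). The regions did not overlap, and within the PL M157 and M378 were about 2 log2 units below M476 and M480. rno-miR-7b, which differs from it in 1 base, was at 10.94, 11.32, 11.69 and 11.89 in the NAc and 9.14, 8.40, 10.17 and 9.93 in the PL (log2FC = 2.04, SE 0.27). Reads of the 2 can be split between them, so their separate sizes are uncertain. Of 4 miRNAs of the miR-7 hairpins tested, 3 were higher and none lower, against 2 higher without M157, M378 or M480. The third, rno-miR-7a-1-3p, had PL counts of 2 to 11 (log2FC = 2.42, SE 0.77, adjusted p = 0.0369 from edgeR). Its PL libraries did not meet the filter on low counts, so its test is no separate support for the difference. The 3p arm rno-miR-7a-2-3p had a log2FC of −0.20 (adjusted p = 0.459 from edgeR).

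rno-miR-21-5p, a miRNA induced by injury and growth signals in many cells, glia among them, was at 7.84, 8.13, 7.86 and 9.31 log2 CPM in the NAc and 4.19, 4.53, 6.44 and 5.67 in the PL (log2FC = 3.11, SE 0.44). rno-miR-872-5p, within Ift74, was at 6.40, 6.56, 6.50 and 7.75 in the NAc and 2.80, 2.10, 5.19 and 4.74 in the PL (log2FC = 3.08, SE 0.52). For each of them the lowest NAc library lay above the highest PL library. The seed of miR-101, a regulator of the histone methyltransferase Ezh2, was higher in both its members. rno-miR-101b-3p stood at 7.17, 7.75, 6.74 and 8.65 log2 CPM in the NAc and 4.42, 4.16, 5.45 and 5.14 in the PL (log2FC = 2.80, SE 0.42). rno-miR-101a-3p, 1 base different, had a log2FC of 1.98 (SE 0.39), and the 2 can share reads.

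The others of the 12 largest differences with an average log2 CPM of at least 5 were rno-miR-1298 (3.003), rno-miR-708-3p (2.53), rno-miR-380-3p (2.44), rno-miR-495 (2.33), rno-miR-192-5p (2.28) and rno-miR-16-5p (2.10), as log2FC. For all 12 the regions did not overlap and 4 of 4 rats were higher in the NAc. The calls held without each rat in turn, except that of rno-miR-16-5p without M157 (adjusted p = 0.0611 from edgeR).

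**Figure D2:**
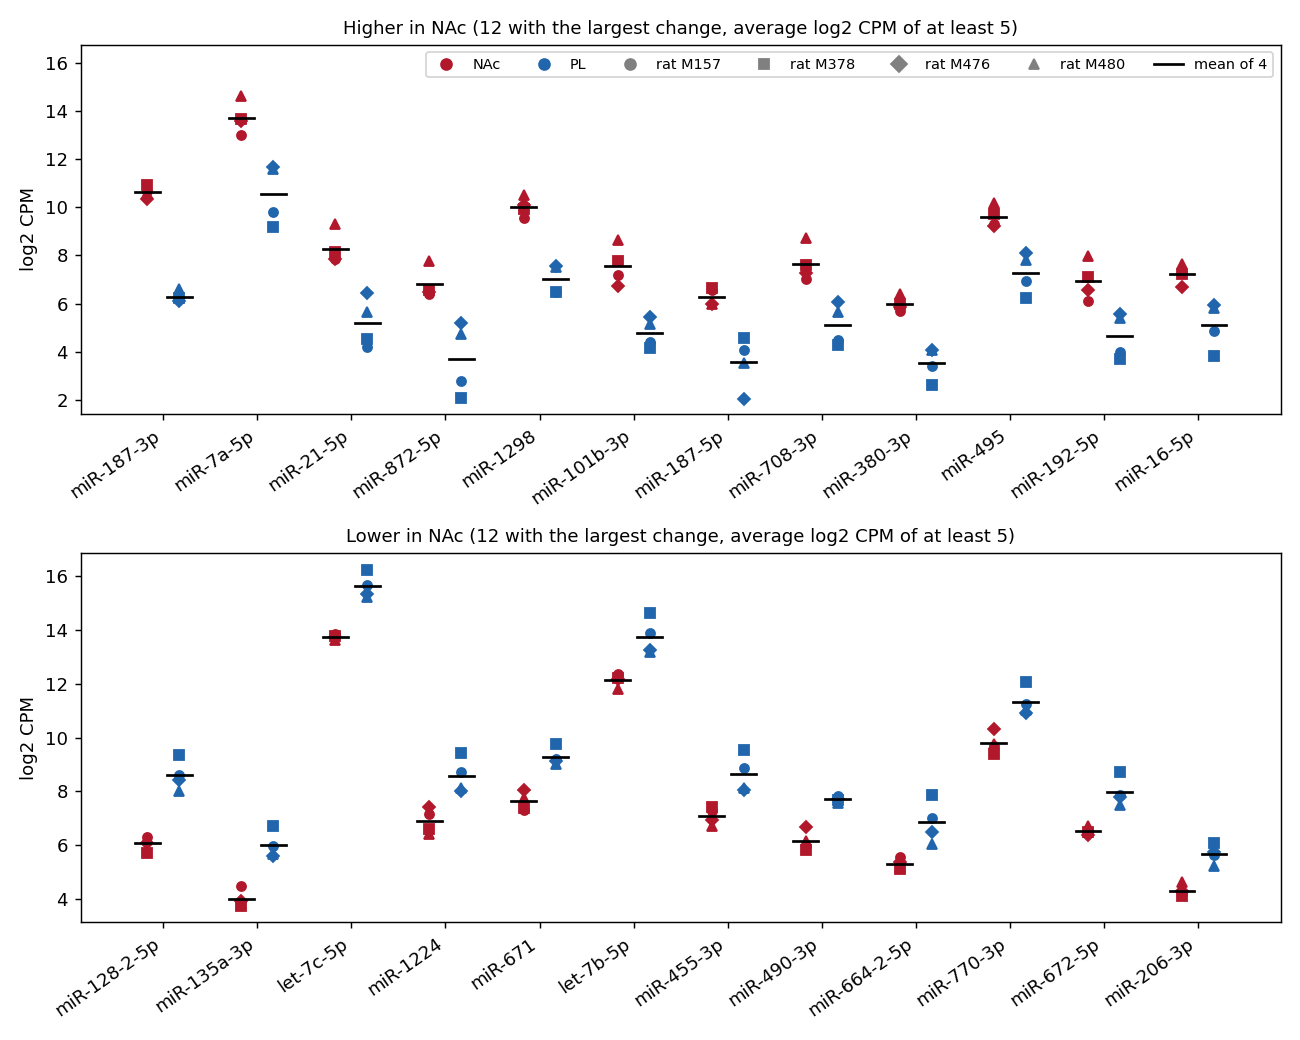
Log2 CPM (vertical axes) of the 12 miRNAs with the largest differences in each direction, NAc in red left of PL in blue, 1 marker shape per rat and a line at the mean of 4. In the upper panel every NAc marker lies above the PL markers of the same miRNA, with rno-miR-187-3p the farthest apart, and in the lower panel every NAc marker lies below.

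Some scarce miRNAs were near absent from the PL. rno-miR-741-3p had 240, 158, 231 and 289 counts in the NAc and 3, 1, 0 and 0 in the PL (adjusted p = 0.00137 from edgeR). With PL counts this low the size of the fold change depends on the prior count. rno-miR-653-3p, within the calcitonin receptor gene Calcr, and rno-miR-871-3p, a neighbour of rno-miR-741-3p on chromosome X, had PL totals of 5 and 6 counts over the 4 libraries and were higher in the NAc as well. rno-miR-203b-3p and rno-miR-3065-5p, with PL totals of 3 and 6 counts, were higher too. These 5 passed the filter on low counts through their NAc libraries alone, so their tests are no separate support for the difference. rno-miR-741-3p was among the 5 of lowest p, and the others were singled out after their values were seen.

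In the other direction, rno-miR-128-2-5p had the largest change among miRNAs with an average log2 CPM of at least 5. miR-128 is a neuronal miRNA, and this copy lies within Arpp21, a gene of dopamine-responsive striatal neurons, at chr8:120963844-120963864 on the minus strand (GRCr8). It was at 6.31, 5.71, 6.07 and 6.26 log2 CPM in the NAc and at 8.62, 9.35, 8.42 and 8.001 in the PL (log2FC = −2.50, SE 0.33, edgeR adjusted p = 0.00326). The same arm of the other copy, rno-miR-128-1-5p, was lower too (log2FC = −2.05, SE 0.41). The 3p product of both copies, rno-miR-128-3p, was at 17.36, 17.53, 17.68 and 18.12 in the NAc and 17.74, 17.49, 18.75 and 18.43 in the PL. The regions overlapped for it, and its log2FC of −0.43 (SE 0.24) missed the threshold (adjusted p = 0.177 from edgeR). In edgeR fits described below it was called lower. Its log2FC was −0.62 with a term for GC content (adjusted p = 0.0398) and −0.87 in the 8 cocaine rats (adjusted p = 5.27e-05).

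rno-let-7c-5p, 1 of the most abundant miRNAs, was at 13.84, 13.77, 13.72 and 13.62 log2 CPM in the NAc and 15.68, 16.23, 15.34 and 15.22 in the PL (log2FC = −1.88, SE 0.23). rno-miR-490-3p, within the muscarinic receptor gene Chrm2, was at 5.99, 5.82, 6.67 and 6.16 in the NAc and 7.82, 7.69, 7.73 and 7.59 in the PL (log2FC = −1.55, SE 0.22). Its PL libraries were close together, all of them above the NAc. rno-miR-770-3p, within the imprinted noncoding gene Meg3, was at 9.68, 9.40, 10.31 and 9.77 in the NAc and 11.25, 12.07, 10.93 and 11.01 in the PL (log2FC = −1.52, SE 0.34). The rest of the 12 were rno-miR-135a-3p (−1.99), rno-miR-1224 (−1.67), rno-miR-671 (−1.65), rno-let-7b-5p (−1.60), rno-miR-455-3p (−1.57), rno-miR-664-2-5p (−1.53), rno-miR-672-5p (−1.43) and rno-miR-206-3p (−1.38). All 12 kept their call without each rat in turn, with no overlap of the regions.

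Among scarcer miRNAs that were lower in the NAc, 4 had larger fold changes than rno-miR-128-2-5p. rno-miR-214-3p, encoded within Dnm3 and known from mesenchymal cells, had 2, 4, 1 and 1 counts in the NAc against 26, 53, 18 and 18 in the PL (adjusted p = 0.00117 from edgeR). It passed the filter on low counts through its PL libraries alone, so its test is no separate support for the difference. rno-miR-205, of epithelia, had 19, 18, 31 and 18 counts in the NAc and 89, 151, 78 and 134 in the PL (log2FC = −3.05, SE 0.37). rno-miR-483-5p, within Igf2, was at 0.14, 1.18, −0.55 and −0.47 log2 CPM in the NAc and 3.15, 3.42, 1.75 and 1.81 in the PL (log2FC = −2.52, SE 0.33). Its other arm, rno-miR-483-3p, had a log2FC of −2.51 (SE 0.36). All 4 were lower in 4 of 4 rats. Of the 5 epithelial miRNAs tested on the list that holds rno-miR-205, it alone was lower, and rno-miR-203a-3p (log2FC = 1.98, SE 0.40) and the scarce rno-miR-203b-3p were higher.

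The base composition of a miRNA went with the direction of its difference. Over the 364 miRNAs with a sequence, log2FC and the GC content of the mature miRNA had a Pearson r of −0.53, a description across miRNAs that share the same 8 libraries. Of 25 miRNAs with at most 35% GC, 21 were higher in the NAc and 0 lower, with a median log2FC of 1.75. Between 35% and 45% GC, 40 of 75 were higher and 6 lower (median 1.08), and between 45% and 55%, 31 of 163 were higher and 39 lower (median −0.05). Between 55% and 65%, 4 of 67 were higher and 23 lower (median −0.65), and above 65%, 1 of 34 was higher and 14 lower (median −0.70). rno-miR-187-3p, with 59.1% GC, ran against this relation.

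The relation differed between rats. The difference between NAc and PL correlated with GC content with r of −0.52 in M157, −0.61 in M378, −0.20 in M476 and −0.53 in M480. Within libraries, the deviation from the mean of all 8 changed by −0.28, −0.42, −0.16 and −0.63 log2 units per 10 percentage points of GC in the NAc, and by 0.52, 0.76, 0.08 and 0.13 in the PL, in the order of the rats above. The length of the mature miRNA had an r of −0.02 with log2FC. The cause of this relation was not tested.

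A fit with a linear GC term for each library, chosen after the data were seen, called 114 of 364 miRNAs higher (31.3%) and 79 lower (21.7%). Of the 97 higher and 82 lower calls among miRNAs with a sequence, 76 and 56 were called in the same direction by that fit, and 15 of these 179 changed sign. rno-miR-187-3p had a log2FC of 5.005 in it, rno-miR-1298 of 2.65, rno-miR-7a-5p of 2.005, rno-miR-21-5p of 2.05 and rno-miR-128-2-5p of −1.63, all past the threshold. The calls ended for rno-miR-770-3p (−0.0041, edgeR adjusted p = 0.98), rno-miR-671 (−0.42, adjusted p = 0.070) and rno-miR-1224 (−0.44, adjusted p = 0.065). Their GC contents are 70.6%, 66.7% and 66.7%. Above 65% GC that fit called 17 higher and 1 lower, against 1 and 14 without the term. The calls of this class thus turned around, and whether the term overcorrects there was not tested.

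**Figure D3:**
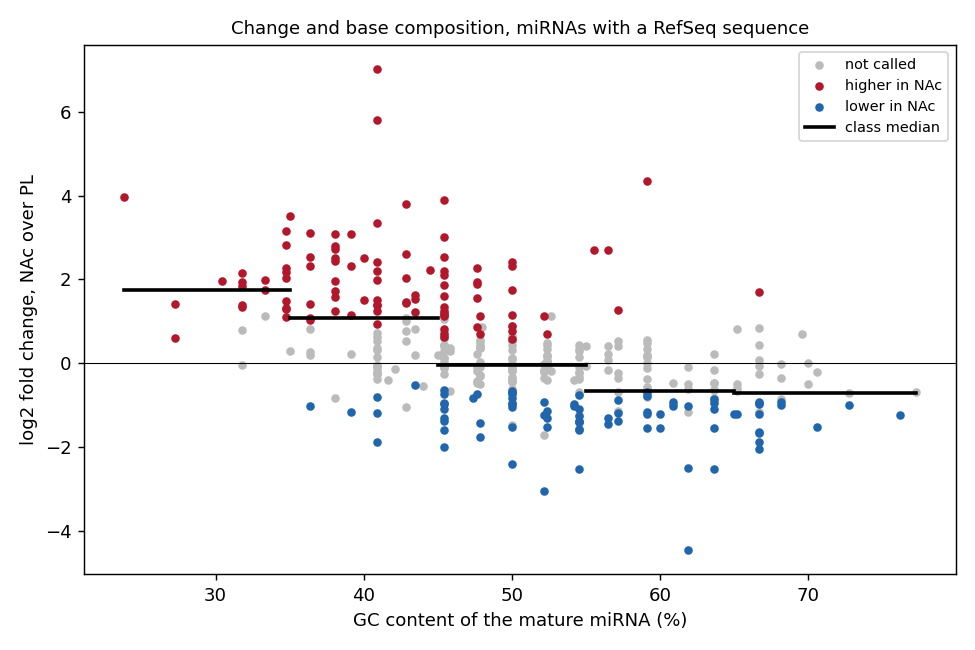
The log2 fold change of NAc over PL (vertical axis) against the GC content of the mature miRNA in percent (horizontal axis) for 364 miRNAs, coloured by call, with a black line at the median of each GC class. The class medians step down from 1.75 at 35% GC or less to −0.70 above 65%.

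Named groups of miRNAs were described next, each against the 25.9% of all miRNAs that were higher and the 22.4% that were lower. The miRNAs within Htr2c, the serotonin 2C receptor gene on chromosome X, were higher in the NAc. All 5 tested of the list for this gene, from the hairpins of miR-1298, miR-448 and miR-764, were called. Their median log2FC of 2.69 was that of rno-miR-764-3p, whose PL counts of 0 to 6 make its size depend on the prior count. That miRNA passed the filter on low counts through its NAc libraries alone, so its test is no separate support for the difference. The summed level of the 5 was 790 to 1526 CPM in the NAc and 95.4 to 196 CPM in the PL. rno-miR-1298, at chrX:115556987-115557008 on the plus strand (GRCr8), stood at 9.53, 9.94, 10.09 and 10.52 log2 CPM in the NAc and 6.49, 6.50, 7.55 and 7.53 in the PL (log2FC = 3.003, SE 0.22, edgeR adjusted p = 0.00046). rno-miR-448-3p had 229, 251, 200 and 283 counts in the NAc and 6, 10, 18 and 11 in the PL (log2FC = 3.79, SE 0.38). The other arm of that hairpin, rno-miR-448-5p, had a log2FC of 2.41, and the arms of miR-764 had 2.69 (rno-miR-764-3p) and 2.09 (rno-miR-764-5p). RefSeq places 1 more tested miRNA within the gene, rno-miR-3552, which is not on the list. It had the smallest change of the 6, at 3.48, 3.39, 3.22 and 2.28 log2 CPM in the NAc and 1.67, 2.10, 0.26 and 1.41 in the PL (log2FC = 1.70, SE 0.40). The 4 of the list with a sequence and rno-miR-3552 were higher in the fit with the GC term as well. Without M157 the calls of rno-miR-764-3p and rno-miR-3552 ended (adjusted p = 0.0720 and 0.0717 from edgeR).

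The let-7 family, known from developmental timing and high in differentiated cells, was split. Of 8 members with its seed, 5 were lower in the NAc and 2 higher. rno-let-7a-5p was at 14.29, 14.26, 14.02 and 14.11 log2 CPM in the NAc and 15.32, 15.33, 15.17 and 14.94 in the PL (log2FC = −1.02, SE 0.18). rno-let-7f-5p, which differs from it in 1 base, was at 14.45, 14.64, 13.96 and 14.94 in the NAc and 12.63, 11.83, 14.23 and 13.83 in the PL (log2FC = 1.38, SE 0.48, edgeR adjusted p = 0.0481). For rno-let-7a-5p the regions did not overlap, whereas for rno-let-7f-5p they did, with M476 lower in the NAc.

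rno-let-7b-5p had a log2FC of −1.60, rno-let-7e-5p of −1.19 and rno-let-7d-5p of −0.81, and all 3 were lower in 4 of 4 rats without overlap. rno-miR-98-5p was higher (log2FC = 1.34, SE 0.45) in 3 of 4 rats. rno-let-7i-5p stood at 14.95, 15.24, 15.28 and 15.56 log2 CPM in the NAc and 14.69, 14.31, 15.46 and 15.33 in the PL (log2FC = 0.31, edgeR adjusted p = 0.295). The calls of rno-let-7f-5p and rno-miR-98-5p each held without M476 and ended without any other rat, and in the fit with the GC term their log2FC was 0.00 and −0.06. rno-let-7d-5p lost its call without M157 or M480 (adjusted p = 0.0577 and 0.0701 from edgeR), and was lower in the fit with the GC term (−1.50). The summed let-7 level was 108516 to 130750 CPM in the NAc, below the 162972 to 211078 CPM of the PL. Members that differ in 1 or 2 bases can share reads, so their separate sizes are uncertain.

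**Figure D4:**
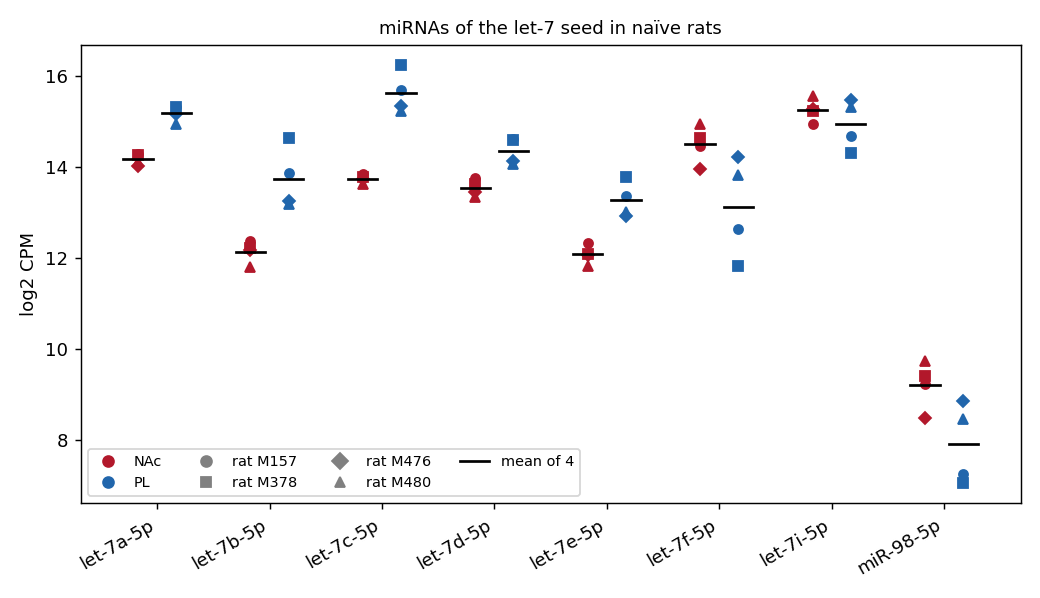
Log2 CPM (vertical axis) of the 8 miRNAs with the let-7 seed, NAc in red left of PL in blue, 1 marker shape per rat and a line at the mean of 4. rno-let-7a-5p, -7b, -7c, -7d and -7e lie lower in the NAc without overlap, while rno-let-7f-5p and rno-miR-98-5p have higher NAc means, with PL values that spread over more than 1 log2 unit.

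In the miR-99, miR-100 and miR-125 group, partly encoded beside let-7, the lower calls lay mainly in miR-125. Of 10 tested, 6 were lower and 0 higher, with a median log2FC of −0.85. The lower ones were all tested arms of miR-125 and rno-miR-99b-3p. Without M157 the lower ones numbered 3, and without M480 also 3. rno-miR-125a-5p was at 15.29, 15.17, 15.07 and 15.06 log2 CPM in the NAc and 16.16, 16.54, 15.64 and 15.60 in the PL (log2FC = −0.84, SE 0.22). rno-miR-125b-5p was at 14.47, 14.06, 14.28 and 13.96 in the NAc and 15.50, 15.34, 14.96 and 15.14 in the PL (log2FC = −1.05, SE 0.20). Neither overlapped between regions. Both calls ended without 1 rat, that of rno-miR-125a-5p without M157 or M480 (adjusted p = 0.0666 and 0.0739) and that of rno-miR-125b-5p without M480 (0.0552, from edgeR). rno-miR-99a-5p had a log2FC of 0.20 (adjusted p = 0.567 from edgeR). The log2FC was 0.32 for rno-miR-100-5p, 0.89 for rno-miR-99a-3p and −0.46 for rno-miR-99b-5p (adjusted p = 0.222, 0.109 and 0.131 from edgeR).

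Neuron-enriched miRNAs went in each direction. Of 18 tested, 4 were higher and 7 lower, against 1 and 2 without M157, 2 and 4 without M378, 4 and 8 without M476, and 1 and 2 without M480. rno-miR-218a-5p, best known from motor neurons, was higher at 12.30, 12.83, 12.70 and 13.38 log2 CPM in the NAc against 10.57, 10.11, 11.92 and 11.69 in the PL (log2FC = 1.73, SE 0.32), and kept its call without each rat. rno-miR-9a-5p, of neural progenitors and neurons, was higher in 3 of 4 rats (log2FC = 1.29, SE 0.44, edgeR adjusted p = 0.0463). That call ended without M157, M378 or M480 (adjusted p = 0.201, 0.145 and 0.103) and in the fit with the GC term (log2FC = 0.14). rno-miR-124-3p, the classical neuronal miRNA, was lower at 12.49, 11.98, 11.96 and 11.60 in the NAc against 13.17, 13.09, 12.23 and 12.51 in the PL (log2FC = −0.75, SE 0.21). Its regions overlapped, though each rat was lower in the NAc, and its call ended without M157, M378 or M480 (adjusted p = 0.0720, 0.0705 and 0.120 from edgeR).

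Of the miRNAs studied in the striatum after cocaine (miR-124, miR-132, miR-212, miR-181 and let-7d), 5 of 15 were lower in the NAc of these naïve rats and 0 higher. That count of 5 was 0 without M157, 1 without M378, 3 without M476 and 0 without M480. rno-miR-132-3p, a target of CREB that rises with neuronal firing, was at 10.65, 10.62, 11.14 and 10.64 log2 CPM in the NAc and 11.67, 12.08, 11.37 and 11.73 in the PL (log2FC = −0.95, SE 0.24, edgeR adjusted p = 0.0177). The call ended without M157, M378 or M480 (adjusted p = 0.0630, 0.0569 and 0.0792). rno-miR-212-5p, from the same cluster, had a log2FC of −0.11 (adjusted p = 0.636). rno-miR-181a-5p was at 13.78, 13.42, 13.87 and 13.62 in the NAc and 14.35, 14.22, 14.09 and 14.02 in the PL, without overlap, and its log2FC of −0.50 had an adjusted p of 0.0643 from edgeR.

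At the imprinted Dlk1-Dio3 locus on chromosome 6, which makes the brain's largest miRNA cluster from the maternal allele, the miR-379 to miR-410 cluster had 21 of 53 miRNAs higher and 4 lower (median log2FC 0.37). rno-miR-495 was at 9.33, 9.72, 9.20 and 10.16 log2 CPM in the NAc and 6.95, 6.25, 8.11 and 7.81 in the PL. rno-miR-369-3p, among the lowest p of the higher miRNAs, had PL counts of 2 to 12 (log2FC = 3.97, SE 0.38, edgeR adjusted p = 0.00128). In the fit with the GC term its log2FC was 1.87. It passed the filter on low counts through its NAc libraries alone, so its test is no separate support for the difference. The same holds for rno-miR-377-3p, also among the 21, with PL counts of 0 to 6. rno-miR-410-3p was at 8.20, 8.08, 8.06 and 8.05 in the NAc and 6.67, 5.53, 6.88 and 6.95 in the PL (log2FC = 1.58, SE 0.29). rno-miR-485-5p went the other way (log2FC = −1.10, SE 0.32; adjusted p = 0.0742 without M157), and rno-miR-543-3p, the most abundant, did not pass (0.21, edgeR adjusted p = 0.346). The summed level of the cluster overlapped between regions, with 34531 to 47687 CPM in the NAc and 33270 to 42225 CPM in the PL. Without 1 rat, 8 (without M157) to 23 (without M476) of the 53 were higher.

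The list of miRNAs antisense to Rtl1 at the same locus had 12 tested, although RefSeq does not place rno-miR-540-3p, on that list, within Rtl1. Of these 12, 6 were higher and 2 lower, with rno-miR-540-3p among the lower. Without M157 none was higher, without M480 1 and without M378 3, and none was lower without each of these rats, while without M476 6 were higher and 3 lower. The most abundant, rno-miR-127-3p, was lower at 14.79, 14.88, 15.45 and 15.02 log2 CPM in the NAc against 15.82, 16.22, 15.61 and 15.61 in the PL (log2FC = −0.78, SE 0.25). Its call ended without M157, M378 or M480 (adjusted p = 0.110, 0.0745 and 0.112 from edgeR) and in the fit with the GC term (−0.12). rno-miR-431, at 5.89, 5.73, 6.25 and 6.20 in the NAc and 4.47, 4.61, 4.86 and 5.06 in the PL, was higher (log2FC = 1.27, SE 0.21) and had a log2FC of 1.79 in that fit, though its adjusted p was 0.0514 without M157.

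Markers of other cells moved as well, and in bulk tissue fewer cells of a type and less RNA per cell cannot be told apart. Of 4 oligodendrocyte miRNAs, 3 were higher in the NAc (1 without M157 and 1 without M480), and their summed level was 3760 to 5801 CPM in the NAc against 2174 to 3625 CPM in the PL. rno-miR-219-2-3p, the most abundant of the 4, was at 11.68, 11.25, 11.94 and 11.45 log2 CPM in the NAc and 10.63, 10.49, 11.22 and 10.60 in the PL (log2FC = 0.84, SE 0.18). rno-miR-338-3p, within Aatk, had a log2FC of 3.08 (SE 0.46), and rno-miR-338-5p, the more abundant arm, of 0.70 (SE 0.18). The calls of rno-miR-219-2-3p and rno-miR-338-5p ended without M157 (adjusted p = 0.0839 and 0.160) or M480 (0.0552 and 0.0705), and that of rno-miR-338-5p also in the fit with the GC term (log2FC = 0.35, adjusted p = 0.0959). In the 8 cocaine rats 1 of the 4 was higher (rno-miR-338-3p) and 1 lower (rno-miR-219-1-3p), with adjusted p of 0.0703 for rno-miR-219-2-3p and 0.0549 for rno-miR-338-5p from edgeR.

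Of 5 immune cell miRNAs, 3 were lower and 0 higher (2 lower without M480). The list has 10 in the table, and none of miR-142, miR-155 or miR-223 passed the filter on low counts. The lower ones were both arms of miR-150 and rno-miR-146b-3p. The more abundant rno-miR-146b-5p and rno-miR-146a-5p had log2FC of −0.39 and −0.04 (adjusted p = 0.267 and 0.873 from edgeR). rno-miR-150-5p, of lymphocytes, was at 8.91, 8.67, 8.48 and 8.19 log2 CPM in the NAc and 10.001, 10.22, 9.23 and 9.40 in the PL (log2FC = −1.15, SE 0.20), and kept its call without each rat. Of 6 vascular miRNAs, 2 were higher and 1 lower (0 higher without M157, M378 or M480, and 4 without M476), and their summed level overlapped between regions. The endothelial rno-miR-126a-3p was higher (log2FC = 1.35, SE 0.45, adjusted p = 0.0414) in 3 of 4 rats, and its call ended without M157, M378 or M480 (adjusted p = 0.176, 0.132 and 0.105). rno-miR-145-5p, of smooth muscle, was lower (log2FC = −1.23, SE 0.27), a call that ended without M157 or M480 (adjusted p = 0.0540 and 0.0552), and rno-miR-143-3p, from the same cluster, had a log2FC of 1.06 (adjusted p = 0.0697 from edgeR). Of 6 choroid plexus and ependymal miRNAs, rno-miR-204-5p was higher (0.63, adjusted p = 0.0410) and its other arm, rno-miR-204-3p, lower (−0.67, edgeR adjusted p = 0.0451), and neither passed in the fit with the GC term. Without M157 or M480 neither was called (adjusted p = 0.0877 and 0.135 for rno-miR-204-5p, 0.149 and 0.123 for rno-miR-204-3p), and without M378 rno-miR-204-3p was not (0.130).

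Epithelial and sensory-cell miRNAs (the families of miR-200 and miR-183) set 1 library apart. Their summed level was 33.3 to 45.6 CPM in the NAc and 25.0 to 249 CPM in the PL, with the highest value in M157. rno-miR-200b-3p was at 2.76, 1.81, 1.91 and 3.09 log2 CPM in the NAc and 6.09, 0.11, 0.88 and 1.19 in the PL. Of the 5 members tested, none was called with all rats, and without M157 2 were higher in the NAc. The part of this library in other results was not tested beyond the counts without M157 given above.

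Of 13 miRNAs of the miR-30 and miR-384 list, 5 were higher and 3 lower, and without 1 rat 0 (without M157) to 8 (without M476) were higher. The most abundant, rno-miR-30d-5p, had a log2FC of −0.18 (adjusted p = 0.454 from edgeR). Among the other 5p arms were rno-miR-30b-5p at a log2FC of 1.66 (SE 0.34; adjusted p = 0.0667 without M157), rno-miR-30c-5p at a log2FC of 1.21 (SE 0.36) and rno-miR-30e-5p at 1.40 (SE 0.33). Without M157 or M480 neither was called (adjusted p = 0.152 and 0.0792 for rno-miR-30c-5p, 0.0666 and 0.0552 for rno-miR-30e-5p), and without M378 rno-miR-30c-5p was not (0.0902). The miR-29 family, known for repressing collagens, had 2 of 5 higher, with rno-miR-29b-3p at 1.11 (SE 0.22) and a log2FC of −0.04 in the fit with the GC term, and its call ended without M157 or M480 (adjusted p = 0.0730 and 0.0552). Both members of miR-10 tested, Hox-cluster miRNAs of the hindbrain and spinal cord, differed and went opposite ways. rno-miR-10a-5p was at 3.82, 5.08, 7.36 and 7.19 log2 CPM in the NAc and 2.99, 3.31, 6.59 and 4.45 in the PL (log2FC = 1.52, SE 0.38), higher in M476 and M480 than in the other rats in each region. rno-miR-10b-5p had a log2FC of −1.09 (SE 0.36). Both calls ended without M480 (adjusted p = 0.0607 and 0.148 from edgeR), that of rno-miR-10a-5p also without M378 (0.0573) and that of rno-miR-10b-5p also without M157 or M476 (0.151 and 0.0694).

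The 2 arms of a hairpin come from 1 precursor, so their ratio was compared between regions as well. Of 116 hairpins with both arms tested, 55 (47.4%) had a ratio of 5p to 3p that differed at an adjusted p under 0.05 in limma with the rat as a block, with the 5p share higher in the NAc for 25 and lower for 30. Both arms were higher in the NAc for 15 hairpins, both were lower for 8, and they were called in opposite directions for 7. For 51 hairpins 1 arm was called, and for 35 none. Across hairpins the log2FC of the arms had a Pearson r of 0.42.

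miR-135a had the lowest p. rno-miR-135a-5p was at 5.19, 5.27, 4.24 and 6.36 log2 CPM in the NAc and 2.69, 2.70, 4.06 and 3.91 in the PL, while rno-miR-135a-3p was at 4.50, 3.75, 3.94 and 3.80 in the NAc and 5.98, 6.73, 5.58 and 5.67 in the PL. The log2 ratio of 5p to 3p was therefore 0.69, 1.52, 0.30 and 2.56 in the NAc and −3.29, −4.03, −1.53 and −1.76 in the PL, a difference of 3.92 (SE 0.58, adjusted p = 0.0170 from limma). The dominant arm was 5p in every NAc library and 3p in every PL library. rno-miR-135a-5p lost its call in the fit with the GC term (log2FC = 0.47) and without M157, M378 or M480 (adjusted p = 0.0807, 0.0705 and 0.0672 from edgeR), and rno-miR-135a-3p kept it (−2.33 with the GC term). miR-708 had the reverse pattern in its means, with a log2 ratio of −1.12 in the NAc and 0.83 in the PL. miR-137, a neuronal hairpin, had 5p lower (log2FC = −0.95) and 3p higher (2.28), and the calls of rno-miR-137-5p and rno-miR-137-3p ended without M157 (adjusted p = 0.0720 and 0.0666), M378 (0.0539 for each) or M480 (0.0721 and 0.0530 from edgeR).

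The difference between the arms went with their difference in GC content, with a Pearson r of −0.66 across the 99 hairpins with both sequences. The count of 55 was 0 without M157, 0 without M480, 17 without M378 and 58 without M476.

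The same regions were compared in the 8 rats with cocaine experience, whose 16 libraries share none with the naïve rats. There, 126 of 407 miRNAs were higher in the NAc (31%) and 132 lower (32.4%). Of the 102 miRNAs called higher in the naïve rats that could be tested there, 92 were called higher, and of the 91 called lower, 84 were called lower. Of these 193, 0 had the opposite sign, and 80 further miRNAs tested in each set were called in the cocaine rats alone. rno-miR-187-3p had a log2FC of 4.41 in the cocaine rats and 4.34 in the naïve rats, rno-miR-1298 of 2.74 and 3.003, rno-miR-7a-5p of 2.07 and 3.15, rno-miR-21-5p of 1.63 and 3.11, and rno-miR-128-2-5p of −2.10 and −2.50. The correlation of log2FC with GC content was −0.36 in the cocaine rats and −0.53 in the naïve rats.

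Whether the difference itself changed with cocaine was tested in 1 fit over the 24 libraries. None of 406 miRNAs passed (lowest adjusted p = 0.366 from edgeR), 50 had an unadjusted p under 0.05, and limma-voom also called 0. The lowest p was that of rno-miR-383-5p, with a log2FC of NAc over PL of 0.23 in the cocaine rats and −0.40 in the naïve rats, a difference of 0.64 (SE 0.17). Without naïve rat M476, 37 miRNAs passed, and without each of the other rats none did.

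**Figure D5:**
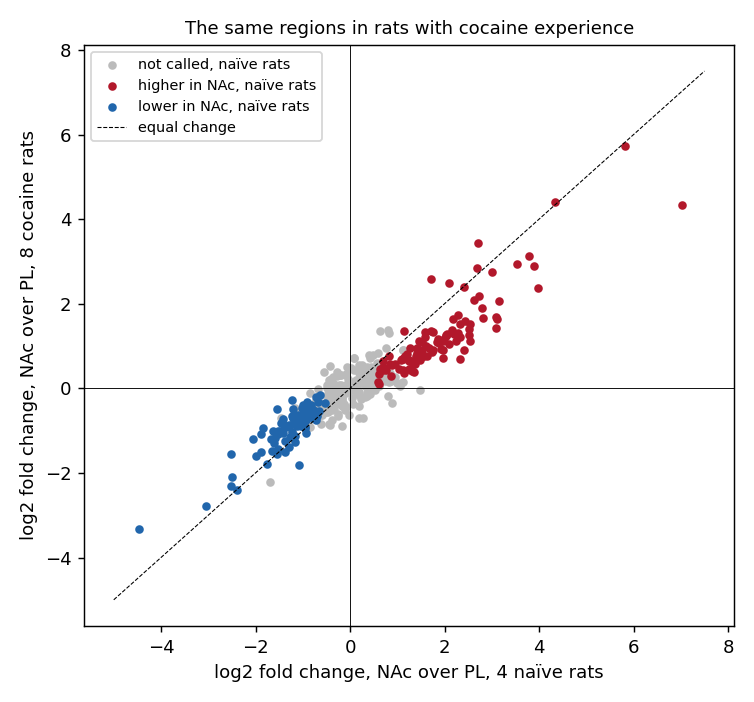
The log2 fold change of NAc over PL in the 8 cocaine rats (vertical axis) against that in the 4 naïve rats (horizontal axis), 1 point per miRNA tested in each set, coloured by the call in naïve rats, with a dashed line of equal change. No red point lies below 0 on the vertical axis and no blue point above it, and many red points lie under the dashed line, such as rno-miR-21-5p at 1.63 against 3.11.

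Levels in the IL of the same naïve rats are given from the 12 naïve libraries scaled together. rno-miR-187-3p averaged 10.60 log2 CPM in the NAc, 6.73 in the IL and 6.22 in the PL. rno-let-7c-5p averaged 13.71 in the NAc, 15.59 in the IL and 15.55 in the PL.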

How the data were processed

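The authors processed the small RNA reads with the CAP-miRseq workflow and deposited raw read counts per mature miRNA for 36 libraries, of which the 8 NAc and PL libraries of naïve rats were used here. The paper names the rat assembly rn6 and the submitters' processing notes name mRatBN7.2 and rn7, so RefSeq GRCr8 served for sequences, host genes and positions only. A miRNA was placed within a gene by position alone, whichever strand the gene is on. The members and the miRNA lists were chosen with earlier results of these data known.

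Of 723 miRNAs, 406 passed filterByExpr by region (minimum count 10, minimum total 15) and held 99.9936% of the counts. A miRNA could pass this filter through 1 region alone. The 406 were fitted in edgeR 4.0.16 (R 4.3.3) with TMM scaling and the rat as a block, which left 3 residual degrees of freedom, and p-values were adjusted by Benjamini-Hochberg over all of them. Log2 CPM used a prior count of 0.5. Arm ratios were tested in limma 3.58.1. The same contrast was fitted in the 16 libraries of the cocaine rats, and an interaction over 24 libraries. All tests were two-sided. The calls were tested on simulated counts with known changes. DESeq2 1.42.0 and limma-voom were alternatives, and a term for GC content was added after the data were seen. Figures used matplotlib 3.10.9.

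The pairing comes from the animals, and 1 NAc library was tied to M480 as the single naïve rat left without an NAc library in the sample list used here. Deviations from the region means correlated with r of 0.544, 0.00086, −0.043 and 0.496 within rats M157, M378, M476 and M480, and with a median of −0.123 between different rats. No 2 libraries of a region agreed within sampling noise (lowest chi-square per degree of freedom 216 over 12 pairs). Sign flips of 4 within-rat differences cannot go below an exact p of 0.125.

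The miRNAs named were drawn from a rule that picked 100, and not all of these are given in the text. It took the 12 called with the greatest log2FC up and down (average log2 CPM of at least 5, 4 of 4 rats alike), the 5 of lowest p up and down and the 5 most abundant. It also took the most expressed members of 32 lists, up to 10 hairpins of the arm test and the 5 with the lowest p in the interaction. Others are named as chosen after their values were seen, among them the remaining members of the let-7, miR-7 and Htr2c groups. Counting intervals were not used, since the spread between rats exceeded counting error.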

Additional observations from a re-analysis of the deposited data

Results flagged for a closer look

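In 8 of 200 groups of 4 libraries checked (100 named miRNAs in 2 regions), 1 library lay far from the other 3. Chance alone flags about 1 in 20 groups. In the NAc, rno-miR-126a-3p was highest in M480 at 13.27 log2 CPM, with the next at 12.36, and rno-miR-872-5p was highest in M480 at 7.75, with the next at 6.56. rno-miR-132-3p was highest in the NAc of M476 at 11.14, with the next at 10.65, and rno-miR-27a-5p lowest in the NAc of M378 at 2.30, with the next at 2.67. In the PL, rno-miR-183-5p was highest in M157 at 7.02 log2 CPM, with the next at 3.62. rno-miR-195-3p was highest in the PL of M476 at 6.60, with the next at 6.36, and rno-miR-103-3p lowest in the PL of M476 at 10.87, with the next at 11.17. rno-miR-204-5p was lowest in the PL of M378 at 10.02, with the next at 10.35. By rat, 1 was in M157, 2 in M378, 3 in M476 and 2 in M480.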

How the results depend on the processing

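The counts of 105 higher and 91 lower miRNAs were 96 and 111 with no replicate block for the rat, 108 and 88 with DESeq2's size factors, 119 and 103 in DESeq2, 107 and 102 in limma-voom, 133 and 79 without the filter, 131 and 121 with RNA integrity as a covariate, 125 and 125 with the 12 naïve libraries, 136 and 130 with all 36, 114 and 79 with GC correction, and 143 and 51 with library totals alone. Leaving out 1 rat gave 38 to 139 higher and 38 to 109 lower, 0 to 58 arm ratios and 0 to 37 interactions. Of 1389 alternative values for named miRNAs, 1184 kept direction and side of the threshold, 93 lost the call, 68 gained one and 44 reversed, and the cause was not tested. Reversed log2FC values were as follows. With library totals they were 0.17 for rno-miR-106b-3p, 0.14 for rno-miR-152-3p, 0.24 for rno-miR-181b-5p, 0.063 for rno-miR-183-5p, 0.21 for rno-miR-212-5p, 0.018 for rno-miR-221-3p, 0.23 for rno-miR-24-3p, 0.21 for rno-miR-27a-3p, 0.14 for rno-miR-30d-5p, 0.078 for rno-miR-31a-5p, 0.20 for rno-miR-344b-1-3p, 0.25 for rno-miR-409a-3p and 0.14 for rno-miR-93-5p. Without the filter they were 0.036 for rno-miR-181b-5p, 0.0075 for rno-miR-212-5p, 0.033 for rno-miR-24-3p, 0.0048 for rno-miR-27a-3p and 0.045 for rno-miR-409a-3p. rno-miR-200b-3p was at −1.71 with no replicate block, −0.24 in limma-voom and −0.053 with 36 libraries. Without each rat in turn, the log2FC ran between −0.25 and 0.14 for rno-miR-106b-3p, −0.040 and 0.12 for rno-miR-107-3p, −0.52 and 0.043 for rno-miR-146b-5p, −0.44 and 0.20 for rno-miR-152-3p, −0.25 and 0.14 for rno-miR-181b-5p, −0.70 and 0.51 for rno-miR-183-5p, −0.19 and 1.49 for rno-miR-200b-3p, −0.18 and 0.18 for rno-miR-24-3p, −0.22 and 0.19 for rno-miR-27a-3p, and −0.21 and 0.19 for rno-miR-409a-3p. With GC correction the values were −0.38 for rno-let-7i-5p, 0.86 for rno-miR-106b-3p, −0.15 for rno-miR-107-3p, −0.54 for rno-miR-148b-3p, 0.24 for rno-miR-24-3p, −0.049 for rno-miR-26a-5p, 0.053 for rno-miR-27a-3p, −0.17 for rno-miR-29a-3p, 0.085 for rno-miR-31a-5p, 0.29 for rno-miR-409a-3p, −0.14 for rno-miR-499-5p and 0.36 for rno-miR-92b-3p. Precision rests on 4 rats and 3 residual degrees of freedom, at a depth of 7517269 counts or more per library, and miRNAs with few counts in a region have fold changes that depend on the prior count.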
